A study of Mus musculus with 12 samples.

Results

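Mitosis and cytokinesis genes encode the proteins with which a dividing cell condenses its chromosomes, builds a spindle, separates sister chromatids and divides its cytoplasm. They were chosen by gene symbol from a list of mitotic roles, drawn up with earlier results of these data known, and all 48 listed genes were found once each among the 34745 genes of the deposited count table. The table holds RNA-seq counts of whole femoral bone marrow from 12 male ICR mice, 3 in each of 4 groups. Normal mice received saline. Mice of the other 3 groups received cyclophosphamide, an alkylating drug that depletes dividing marrow cells, at 80 mg/kg/day from day 5 to day 7 of 1 week of oral treatment. The model group took saline by mouth, the QJSB group 3 g/kg/day of Qi-Jing-Sheng-Bai granule (QJSB), a herbal formula used against leucopenia, and the leucogen group 20 mg/kg/day of leucogen, a drug given for the same condition. These 3 groups share cyclophosphamide, so that a difference of the QJSB or leucogen group from normal cannot be told apart from an effect of that drug. Each library came from 1 mouse. The table heads its columns Model, Blank, Positive and Stilbene. The last 3 headings were read as normal, leucogen and QJSB from their meaning and by elimination, and every group name below rests on that reading.

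Entry into mitosis is driven by cyclins A and B bound to the kinase CDK1. The spindle checkpoint then holds the anaphase-promoting complex in check until each kinetochore, the protein plate on a centromere, is attached to microtubules. CDC20 and UBE2C let that complex destroy securin and cyclin B, after which separase cuts the chromatids apart and a central spindle guides cytokinesis. In marrow these genes mark the pool of cycling precursors, above all erythroblasts, early B cells and granulocyte precursors up to the myelocyte. In bulk RNA, fewer cycling cells and less of these RNAs per cell cannot be told apart.

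Many genes of this set are known to be repressed in resting cells through a cell cycle genes homology region (CHR) and activated through NF-Y boxes in their promoters. Promoter windows from RefSeq, build GRCm38.p6, running from 250 bases before to 50 bases after the transcription start, were given for 40 of the 48 members. Both strands were searched for the CHR (TTTGAA or TTTAAA), the NF-Y box (CCAAT) and the E2F site (TTTCGCGC, TTTGGCGC or TTTCCCGC). A CHR was found in 33 of the 40 (82.5%, against 30.6% of the 27033 genes with a window), an NF-Y box in 29 (72.5% against 41%), both in 27 (67.5% against 12.2%) and an E2F site in 3 (7.5% against 2.12%). In the shorter window of 150 bases before the start, 40% of members had a CHR (16.8% of genes) and 35% both (4.24% of genes). The NF-Y share stayed at 72.5% (27.7% of genes). That window leaves out the bases after the start, where the only CHR matches of Cdca3, Aurka and Spc25, among others, lay. A match of these letters is a description and not a bound site. The 200 bases before the start are shown for 6 members that the results turn on or that differ in their motifs, 5′ to 3′ on the strand of the gene, with CHR and NF-Y letters in capitals on either strand (ATTGG and TTCAAA are the reverse of CCAAT and TTTGAA). Plk1 (plus strand, chr7:122159235-122159434) has 2 CHR matches and 1 NF-Y box, Ccnb2 (minus strand, chr9:70421555-70421754) 1 and 3, Kif11 (plus strand, chr19:37376182-37376381) 1 and 1, Top2a (minus strand, chr11:99024190-99024389) 2 and 5, Mki67 (minus strand, chr7:135716380-135716579) 2 and 3, and Nuf2 (minus strand, chr1:169531465-169531664) neither.
Plk1: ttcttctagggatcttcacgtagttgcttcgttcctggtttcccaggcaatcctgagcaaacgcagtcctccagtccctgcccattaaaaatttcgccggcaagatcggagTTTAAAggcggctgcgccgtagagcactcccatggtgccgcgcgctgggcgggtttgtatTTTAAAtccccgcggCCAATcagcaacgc
Ccnb2: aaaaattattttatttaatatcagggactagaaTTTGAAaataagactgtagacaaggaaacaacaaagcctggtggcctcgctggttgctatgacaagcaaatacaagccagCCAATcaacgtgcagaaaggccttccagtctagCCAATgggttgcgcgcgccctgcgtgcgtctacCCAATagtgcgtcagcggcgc
Kif11: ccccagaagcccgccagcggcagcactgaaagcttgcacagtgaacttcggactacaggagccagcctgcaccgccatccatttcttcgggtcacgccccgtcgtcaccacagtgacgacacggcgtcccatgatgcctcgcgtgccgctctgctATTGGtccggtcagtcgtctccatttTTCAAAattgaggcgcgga
Top2a: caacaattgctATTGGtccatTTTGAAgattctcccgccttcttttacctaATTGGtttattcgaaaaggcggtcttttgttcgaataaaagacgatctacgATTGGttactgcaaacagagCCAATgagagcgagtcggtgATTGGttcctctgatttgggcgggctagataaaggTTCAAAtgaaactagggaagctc
Mki67: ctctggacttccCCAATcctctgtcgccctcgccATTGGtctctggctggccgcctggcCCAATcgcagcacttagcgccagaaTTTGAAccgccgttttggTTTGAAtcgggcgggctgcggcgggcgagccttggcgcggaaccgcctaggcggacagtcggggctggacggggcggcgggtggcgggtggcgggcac
Nuf2: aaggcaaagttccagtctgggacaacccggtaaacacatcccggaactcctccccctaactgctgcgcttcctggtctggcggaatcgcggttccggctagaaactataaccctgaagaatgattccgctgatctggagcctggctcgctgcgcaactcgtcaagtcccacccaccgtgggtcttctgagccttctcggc
No CHR or NF-Y letters were found in the whole window of Mad2l1, Pttg1, Nuf2, Kif18a or Nusap1. Windows were not given for Ccna2, Cdc25c, Foxm1, Aurkb, Incenp, Tpx2, Kif20a and Cdca2.

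Library totals ran from 11172547 to 18545198 counts. The lowest count of any member in any library was 133, for Ube2c, so that all 48 were tested in every comparison. Over the genes as a whole, the mice of every group differed by more than sampling noise (chi-square per degree of freedom 10.9 or more between replicates). For single members this was not assessed, and the spread of 3 mice was very small in some, such as Kif23 in normal. Counts were brought to a common library size with TMM factors of all 12 libraries, giving the usual CPM unit. The edgeR tests took TMM factors from the 6 libraries compared, so that a fold change can differ a little from the ratio of the CPM means. A gene was called when its Benjamini-Hochberg adjusted p over all genes tested was under 0.05 and its change was over 1.5-fold in either direction. Values per library are in CPM in the order of mice 1 to 3, fold changes are on the log2 scale, and n is 3 mice a group throughout.

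The normal libraries held the highest levels of these genes relative to all counted RNA. The mean log2 CPM over the 48 members was 7.20, 7.22 and 7.25 in the normal libraries, 6.69, 6.83 and 7.08 in model, 6.79, 7.07 and 7.01 in QJSB and 6.55, 6.79 and 6.77 in leucogen. Each of the 9 libraries after cyclophosphamide lay below the 3 normal ones, and the 3 groups after cyclophosphamide overlapped. Summed over the members, CPM ran from 14396 to 14826 in normal, 7615 to 10112 in model, 7996 to 10110 in QJSB and 7952 to 9871 in leucogen. By length-corrected level (FPKM, mean of 12 libraries) Mki67, the proliferation marker that coats mitotic chromosomes, was highest at 288, followed by Top2a, which untangles sister DNA, at 107 and the spindle motor Kif11 at 92.4. The centrosome kinase Nek2 was lowest at 7.49 FPKM. For 19 of the 48 members (39.6%) all 9 libraries after cyclophosphamide lay below all 3 normal libraries, against 17.6% of the 14752 genes tested. For 0 members did all 9 lie above them, against 13.1% of those genes.

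**Figure D1:**
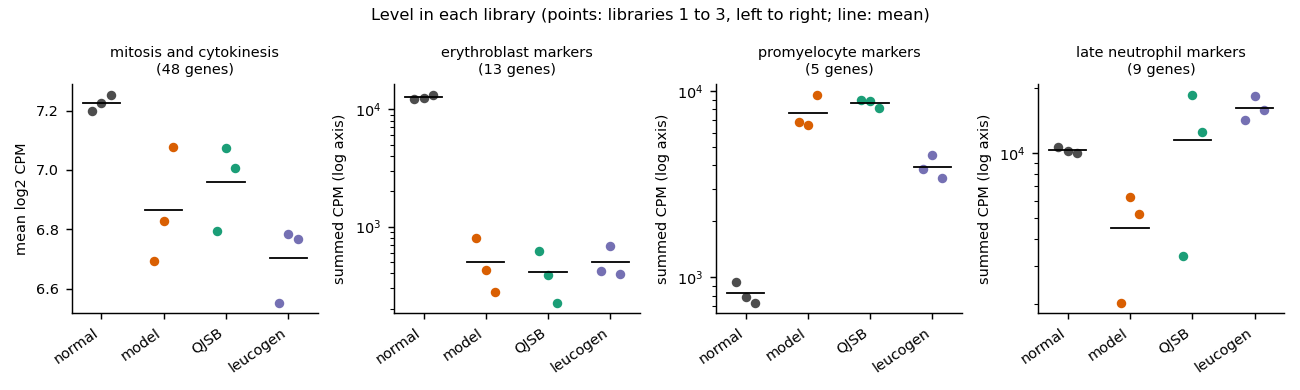
Level in each library (points, libraries 1 to 3 from left to right; line, mean of the group): mean log2 CPM of the 48 members, and summed CPM, on a log axis, of the marker lists of erythroblasts, promyelocytes and late neutrophils. The 3 normal libraries sit highest for the members and for the erythroblast markers, while the promyelocyte markers sit at 732 to 948 CPM in normal and at 3414 or more in the other groups.

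Markers of the cell types of the marrow moved in the same contrast. All 13 listed erythroblast genes, such as Hemgn and Klf1, were called lower in model than in normal (median log2 fold change -5.44), and their summed CPM was 12256 to 13267 in normal and 225 to 803 in the 9 other libraries. Of pro-B and pre-B genes 7 of 10 were called lower (median -3.36), and of mature B cell genes 7 of 7 (median -8.79). All 5 promyelocyte genes, Mpo, Elane, Prtn3, Ctsg and Ms4a3, were called higher (median 3.22), and 4 of 9 late neutrophil genes lower (median -1.46). Of other lists, 4 of 8 stem and progenitor genes were called higher, 5 of 8 macrophage genes and 4 of 5 T and NK cell genes lower and 1 of each higher, and 0 stromal or megakaryocyte genes. None of the erythroblast, promyelocyte or late neutrophil genes was at 0 in any library, whereas up to 3 of 10 pro-B and pre-B genes and up to 4 of 7 mature B cell genes were at 0 in libraries after cyclophosphamide. The part of these shifts in the members' results was not tested.

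Model against normal asks how the levels of mitotic genes differed after cyclophosphamide. Of the 48 members 12 were called lower in model and 0 higher, that is 25% against 19% of the 14752 genes tested that were called lower and 16.1% called higher. The median log2 fold change of the members was -0.27, against 0.02 for all genes. In 22 members all 3 model libraries lay below all 3 normal ones, which was so for 27.9% of all genes tested, whereas those of Bub1b all lay above. The called members were Nusap1, Kif18a, Mki67, Cenpf, Hmmr, Pttg1, Spc25, Ccna2, Kif11, Cenpa, Top2a and Cdk1. With total counts in place of TMM, which moved the median of all genes from 0.02 to 0.14, 7 of these 12 were called, without Ccna2, Cdk1, Cenpa, Kif11 and Top2a, and limma-trend on FPKM also called 7. Leaving out 1 mouse at a time gave 8 to 16 called members, with Cdk1, Kif11, Spc25, Top2a and Cenpa each losing the call in at least 1 of the 6 fits. Without model mouse 3 the median of the members was -0.43.

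By role, the median log2 fold change was lowest in the 3 spindle assembly factors (-1.0), followed by chromosome structure (-0.61), centromere and kinetochore (-0.56), anaphase onset (-0.53) and kinesin motors (-0.47). It was -0.26 in entry into mitosis, -0.19 in cytokinesis and 0.15 in the chromosomal passenger complex. The kinases of the centrosome and spindle (-0.08) and the spindle checkpoint (-0.03) were near 0 and turned to 0.04 and 0.08 with total counts.

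The largest fall was that of Nusap1, which bundles spindle microtubules around chromosomes. Its normal libraries had 445, 485 and 451 CPM and its model libraries 140.2, 185 and 171 CPM (log2 fold change -1.48 ± 0.14 (SE), edgeR adjusted p = 0.000105). It fell furthest below normal in model mouse 1. Kif18a, a kinesin that dampens chromosome movement on the spindle, had 243, 272 and 248 CPM in normal and 95.5, 133 and 82.3 CPM in model (log2 fold change -1.30 ± 0.19 (SE), edgeR adjusted p = 0.000869). Mki67 had 4925, 5104 and 5078 CPM in normal and 1613, 2176 and 2442 CPM in model (log2 fold change -1.29 ± 0.18 (SE), edgeR adjusted p = 0.000773). For all 3 genes the groups were well apart, and model mouse 1 was also the lowest for Mki67, but not for Kif18a.

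Among the 8 genes of entry into mitosis, Ccna2 and Cdk1 were called lower in model. Ccna2 encodes cyclin A2, which acts from S phase into prophase. It had 511, 511 and 483 CPM in normal and 289, 303 and 349 CPM in model (log2 fold change -0.69 ± 0.12 (SE), edgeR adjusted p = 0.00238), with all 3 model mice below all normal mice. Cdk1 averaged 151 ± 9.74 CPM (SD) in normal and 101 ± 13.7 CPM in model (log2 fold change -0.59 ± 0.14 (SE), edgeR adjusted p = 0.00944). Ccnb1, the main B cyclin, was also apart in every mouse at 103 ± 4.86 and 70.1 ± 5.77 CPM, but its log2 fold change of -0.57 was just short of 1.5-fold. The other members of this role were not called, with log2 fold changes of -0.17 for Ccnb2, -0.28 for Ccnf, -0.24 for the CDK1-activating phosphatase Cdc25c, 0.14 for Cdca3 and 0.01 for Foxm1, the transcription factor that drives many of these genes. For all of these except Cdc25c, model mouse 3 stood above the other 2 model mice.

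The same mouse stood apart for the kinases of the centrosome and spindle. Plk1, which ripens centrosomes and acts until cytokinesis, had 64.9, 56.3 and 68.6 CPM in normal and 60.8, 56.7 and 123 CPM in model (log2 fold change 0.33 ± 0.28 (SE), edgeR adjusted p = 0.391). Aurka, which activates Plk1 at the centrosome, averaged 79.7 ± 3.41 and 76.2 ± 24.1 CPM, and Nek2, which splits the centrosome pair, 54.6 ± 2.71 and 38.3 ± 7.06 CPM (log2 fold change -0.52). None of the 3 was called. Of these, only Nek2 had all model mice below all normal mice. Cdc20, the activator of the anaphase-promoting complex, also had its highest level in model mouse 3, with 71.5, 64.7 and 77.3 CPM in normal and 75.7, 52.9 and 109 CPM in model (log2 fold change 0.14 ± 0.23 (SE), edgeR adjusted p = 0.662).

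Anaphase onset held 1 called gene, Pttg1. It encodes securin, the inhibitor of separase, and was tightly spread in both groups (73.5 ± 0.797 CPM in normal and 37.4 ± 1.33 CPM in model, log2 fold change -0.99 ± 0.11 (SE), edgeR adjusted p = 0.000298). Ube2c, the ubiquitin-conjugating enzyme of the anaphase-promoting complex, had 35.1, 40.5 and 45.6 CPM in normal and 17.7, 14.9 and 35.4 CPM in model (log2 fold change -0.84 ± 0.31 (SE), edgeR adjusted p = 0.0579). Mouse 3 of the model group again reached the normal range. Espl1, the gene of separase, was not called (log2 fold change -0.22).

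Of the 6 centromere and kinetochore genes, Cenpf, Spc25 and Cenpa were called lower. Cenpf, a large protein of the outer kinetochore, had 661, 701 and 719.9 CPM in normal and 255, 339.8 and 292 CPM in model (log2 fold change -1.24 ± 0.14 (SE), edgeR adjusted p = 0.00028). Spc25, a subunit of the NDC80 complex that grips microtubules, had 102, 114 and 99.3 CPM in normal and 51.1, 78.5 and 62.2 CPM in model (log2 fold change -0.73 ± 0.17 (SE), edgeR adjusted p = 0.0101). The other 2 subunits of that complex on the list, Ndc80 and Nuf2, were not called (-0.26 and -0.50), nor was the kinetochore motor Cenpe (-0.41), although the model libraries of Nuf2 and Cenpe all lay below the normal ones. Cenpa, the histone variant that marks centromeres, averaged 178 ± 13.5 and 117 ± 14.3 CPM (log2 fold change -0.63 ± 0.13 (SE), edgeR adjusted p = 0.00592). Cenpe had 396, 405 and 403 CPM in normal and 241, 354 and 315 CPM in model.

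None of the 4 spindle checkpoint genes, 4 chromosomal passenger genes or 7 cytokinesis genes was called in model against normal. Bub1b, which encodes the checkpoint protein BubR1, had 127, 136 and 135 CPM in normal and 140.5, 144 and 220.4 CPM in model (log2 fold change 0.33 ± 0.18 (SE), edgeR adjusted p = 0.166), and the other checkpoint genes Bub1, Mad2l1 and Ttk had log2 fold changes of -0.15, -0.26 and 0.08. Incenp, the scaffold of the passenger complex, had 149, 159 and 166 CPM in normal and 149, 152 and 237 CPM in model. Its kinase Aurkb and its subunit Cdca8 (borealin) had log2 fold changes of 0.25 and 0.12, while Birc5 (survivin) was lower in every model mouse at -0.58 without reaching 1.5-fold. In the cytokinesis group the central spindle bundler Prc1 (-0.56), the furrow scaffold Anln (-0.35) and the RhoA activator Ect2 (-0.33) had all model libraries below all normal ones. Racgap1, Kif20a, Kif20b and Kif23, the other components of the midzone and midbody, had log2 fold changes of 0.12, 0.12, -0.13 and -0.19.

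Among the 6 kinesin motors, Kif11 joined Kif18a as called lower. Kif11, the motor that pushes spindle poles apart, had 619, 628 and 591 CPM in normal and 313, 451 and 385 CPM in model (log2 fold change -0.68 ± 0.15 (SE), edgeR adjusted p = 0.00788). The chromokinesin Kif4 was apart in every mouse at -0.56. Kif22, Kif15 and Kif2c had log2 fold changes of -0.38, 0.06 and 0.12 and were not called. Of the spindle assembly factors, Hmmr was called beside Nusap1 (log2 fold change -1.0 ± 0.15 (SE), edgeR adjusted p = 0.00094) and Tpx2, the activator of Aurora A, was not (-0.22). Of chromosome structure genes Top2a was called (log2 fold change -0.61 ± 0.14 (SE), edgeR adjusted p = 0.0077) and Cdca2, a phosphatase regulator, was not (0.25).

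**Figure D2:**
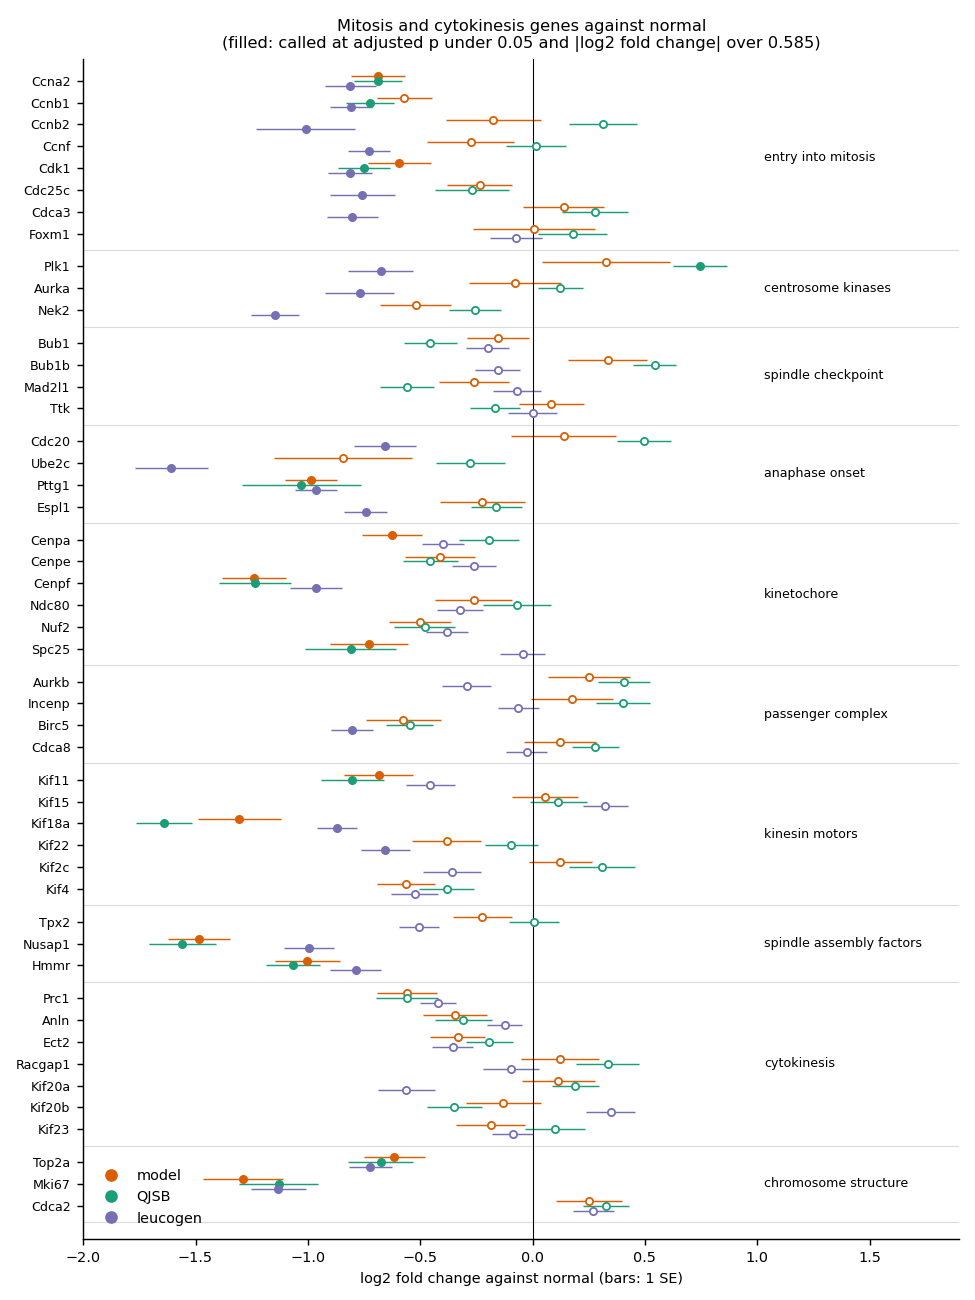
Log2 fold change of each member against normal (x axis; bars, 1 SE) in model, QJSB and leucogen, with members in rows by role; filled points were called and open points were not. Nusap1, Cenpf, Pttg1 and Mki67 are filled and left of zero in all 3 groups, while leucogen alone is filled and left of zero for Plk1, Aurka, Nek2, Cdc20 and Ube2c.

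QJSB against normal gave 12 members called lower and 1 higher, that is 25% called lower against 19.9% of the 14817 genes tested, with 18% of genes called higher. The median log2 fold change of the members was -0.23 (all genes 0.02). Kif18a fell most, to 71.1, 84.3 and 90.3 CPM in the QJSB mice (log2 fold change -1.64 ± 0.13 (SE), edgeR adjusted p = 6.78e-05), far below all normal mice. Nusap1 had 125, 169 and 176 CPM (log2 fold change -1.56 ± 0.15 (SE), edgeR adjusted p = 0.000191) and Cenpf 232, 346 and 309.5 CPM (log2 fold change -1.24 ± 0.16 (SE), edgeR adjusted p = 0.000759). QJSB mouse 1 was the lowest of its group for these 3 genes. Ccnb1 (-0.72), Cdk1 (-0.75), Ccna2 (-0.69), Kif11 (-0.80), Top2a (-0.68), Hmmr (-1.07), Mki67 (-1.13), Spc25 (-0.81) and Pttg1 (-1.03) were also called lower. Pttg1 was high in QJSB mouse 2 (26.7, 54.1 and 27.7 CPM). It lost its call without QJSB mouse 3, as did Top2a without QJSB mouse 1 and Spc25 without normal mouse 2.

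Plk1 was the member called higher in QJSB than in normal. It had 101, 116 and 103 CPM in the QJSB mice (log2 fold change 0.74 ± 0.12 (SE), edgeR adjusted p = 0.00206), and all 3 stood above the normal range. Bub1b (189.9, 201 and 190.3 CPM, log2 fold change 0.54), Cdc20 (95.2, 111 and 96.1 CPM, 0.50) and Incenp (183, 234 and 211 CPM, 0.40) also had every QJSB mouse above every normal mouse and were not called, as did Aurka, Aurkb, Cdca2, Cdca8 and Kif20a. With Plk1 these were 9 of 48 members, a smaller share than the 29.1% of all genes tested that had every QJSB library above normal. The direction of these genes went with the GC content of their transcripts, taken from the longest GENCODE M21 transcript, which ran from 38.2% in Kif18a to 56.1% in Espl1. Across the 48 members the correlation of log2 fold change with GC was 0.64 here, 0.45 in model against normal and -0.23 in leucogen against normal, beside 0.14, 0.06 and -0.10 over all genes with a transcript. The points share their libraries, and no p is given. With the GC trend of each library removed, Plk1 had a log2 fold change of 0.46 and was not called, and 10 members were called lower, against 14 in model against normal.

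QJSB against model asks whether QJSB altered the mitotic genes of cyclophosphamide-treated marrow, and these libraries gave no called member. Of the 48 members 0 were called higher and 0 lower by edgeR at adjusted p under 0.05, as for 0% of the 14486 genes tested in either direction, and the smallest adjusted p of a member was 0.767. At an unadjusted P under 0.05 with the same fold, 0 members passed in either direction, against 1.68% of genes higher and 1.4% lower. DESeq2 and every other fit tried also called 0 members. One member, Cenpa, had an unadjusted P under 0.05 at any fold, with 127, 100.1 and 123 CPM in model and 131, 169 and 169.7 CPM in QJSB (log2 fold change 0.41). It was also the 1 member whose QJSB libraries all lay above the model libraries (4.44% of genes), and Bub1, Mad2l1 and Ttk were the 3 whose QJSB libraries all lay below (5.4% of genes). Their log2 fold changes were -0.33, -0.32 and -0.27. The median over the members was 0.05 (all genes -0.02) and -0.03 with total counts (all genes -0.10), and the highest values were those of Ube2c (0.54) and Ccnb2 (0.46). Without model mouse 3 the median was 0.21. A p that misses the threshold does not show that the groups are alike, and the standard errors of the members here were 0.15 to 0.31. The correlation of log2 fold change with transcript GC was 0.73 across the 48 members (all genes 0.31).

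Leucogen against normal gave the most called members of the 6 comparisons. Of the 48 members 22 were called lower and 0 higher, that is 45.8% called lower against 19.8% of the 14637 genes tested, with 17.8% of genes called higher. The median log2 fold change of the members was -0.51 (all genes -0.01). All 4 genes of anaphase onset, all 3 kinases of the centrosome and spindle and 7 of the 8 genes of entry into mitosis were called lower, although Cdc20 and Plk1 were not called with the GC trend removed. By contrast 0 of the 4 checkpoint genes and 0 of the 7 cytokinesis genes were called. Of the latter, Kif20a fell just short of 1.5-fold (log2 fold change -0.56, edgeR adjusted p = 0.00377). It was called with total counts and with the GC trend removed, among other alternatives. Prc1 (-0.42) and Ect2 (-0.35) were also below normal without a call, while Kif20b was above it (0.35). Ube2c fell most, to 10.5, 15.7 and 13 CPM from 35.1, 40.5 and 45.6 CPM in normal (log2 fold change -1.61 ± 0.16 (SE), edgeR adjusted p = 2.23e-05). Nek2 had 21.7, 25.7 and 25.6 CPM against 53.4, 52.7 and 57.7 CPM (log2 fold change -1.15 ± 0.11 (SE), edgeR adjusted p = 1.35e-05). Mki67 had 1889.9, 2331 and 2592 CPM (log2 fold change -1.13 ± 0.12 (SE), edgeR adjusted p = 3.72e-05), with every leucogen mouse far below every normal mouse.

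The other called genes of entry into mitosis were Ccnb2 (-1.01), Ccna2 (-0.81), Cdk1 (-0.81), Ccnb1 (-0.81), Cdca3 (-0.80), Cdc25c (-0.76) and Ccnf (-0.73), with Foxm1 at -0.07 not called. Ccna2 had 235, 289 and 323 CPM in the leucogen mice, all below normal. Plk1 (-0.68) and Aurka (-0.77) were called among the kinases, and Cdc20 (-0.66), Pttg1 (-0.96) and Espl1 (-0.74) at anaphase onset. Cenpf (-0.96) was the called kinetochore gene and Birc5 (-0.80) the called passenger gene. Kif18a (-0.87), Kif22 (-0.65), Nusap1 (-1.0), Hmmr (-0.79) and Top2a (-0.72) completed the 22. Not all members were below normal. Kif20b (283, 276 and 335 CPM against 244, 259.6 and 209 CPM, 0.35), Kif15 (0.32) and Cdca2 (0.27) had every leucogen mouse above every normal mouse, as had 29.7% of all genes tested, and were not called. Cdc20 and Kif22 lost the call without leucogen mouse 1 and Plk1 without leucogen mouse 3. With the GC trend removed, 21 members were called lower, 20 of them among the 22, without Cdc20 and Plk1.

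Leucogen against model, the 2 groups being equal in cyclophosphamide, gave fewer called members. Of the 48 members 5 were called lower and 1 higher (10.4% against 11.5% of the 14184 genes tested lower, and 2.1% against 11.6% higher), so that neither share exceeded the background. The median was -0.10 (all genes -0.05), with -0.20 without model mouse 1, -0.18 without leucogen mouse 3 and 0.0024 without model mouse 3. Plk1 fell most, from 60.8, 56.7 and 123 CPM in model to 37.6, 47.8 and 31.9 CPM in leucogen (log2 fold change -1.01 ± 0.30 (SE), edgeR adjusted p = 0.0419). Cdca3, a mitotic entry factor that acts on the Wee1 kinase, had 44.4, 58.7 and 70.9 CPM in model and 26.5, 30.6 and 31.9 CPM in leucogen (log2 fold change -0.95 ± 0.19 (SE), edgeR adjusted p = 0.00856). Cdc20 had 75.7, 52.9 and 109 CPM in model and 37.3, 54.4 and 42.3 CPM in leucogen (log2 fold change -0.80 ± 0.25 (SE), edgeR adjusted p = 0.0457), and its lowest model mouse lay under its highest leucogen mouse. Kif20a, a kinesin of the central spindle, and Nek2 were also called lower (-0.68 and -0.63).

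These calls rest on few mice. Without model mouse 3, in which Plk1, Cdc20, Kif20a and Nek2 were highest, 2 members were called, and Plk1 had a log2 fold change of -0.55, Nek2 of -0.49, Cdc20 of -0.49 and Kif20a of -0.46. Without leucogen mouse 1 or 3 the count was 1, without model mouse 1 it was 3, and without model mouse 2 it was 12. Plk1, Cdc20, Kif20a and Nek2 also lost the call without leucogen mouse 2, where 4 members were called. Cdca3 kept its call in each of these fits and with the GC trend removed (-0.80, edgeR adjusted p = 0.0166). Spc25 was the member called higher, at 96.6, 95.7 and 110.2 CPM in leucogen against 51.1, 78.5 and 62.2 CPM in model (log2 fold change 0.67 ± 0.18 (SE), edgeR adjusted p = 0.0235), near its normal level. Nusap1 (log2 fold change 0.48) and Kif20b (0.47) also had all leucogen libraries above model, as had 21.8% of all genes tested, and were not called. Across the 48 members the correlation of log2 fold change with transcript GC was -0.75 (all genes -0.31), and with the GC trend removed 3 members were called, Cdca3 and Kif20a among them, while Spc25 had 0.50, Plk1 -0.72 and Cdc20 -0.51, all under the call. With total counts in place of TMM, which moved the median of all genes from -0.05 to -0.22, 14 members were called lower and 0 higher in place of 5 and 1. That shift bears on all genes, so the count is not read as a result about the members.

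**Figure D3:**
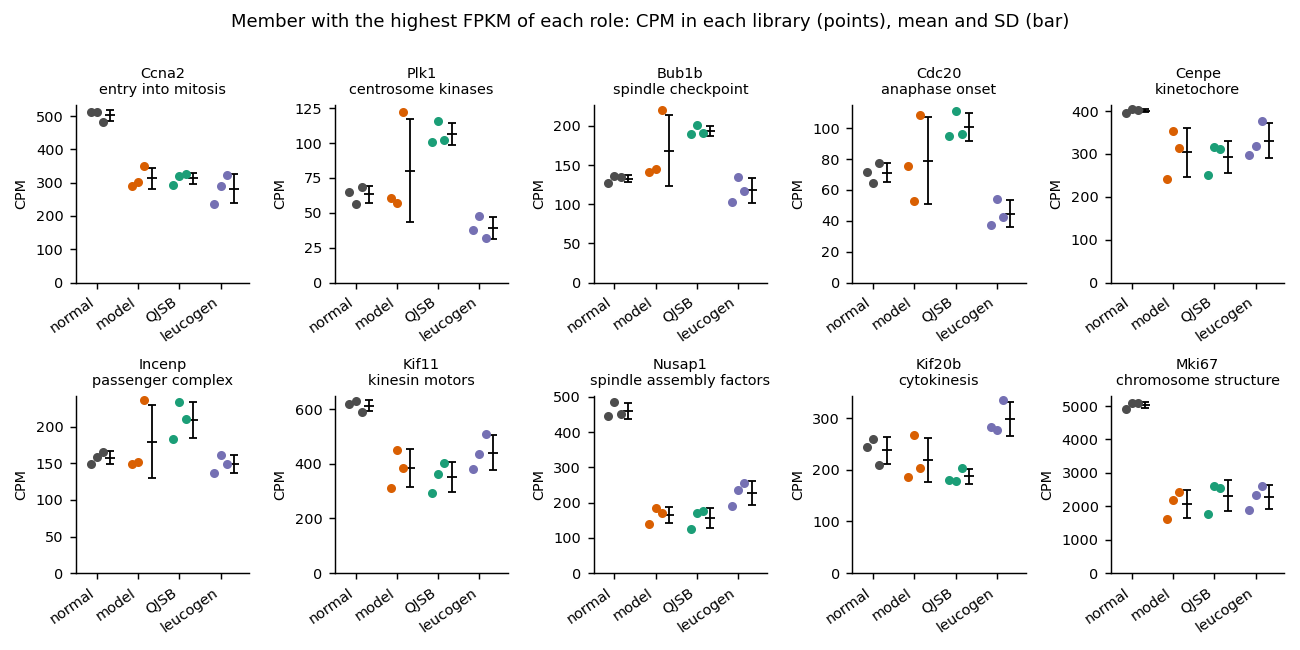
CPM in each library (points) with the mean and SD of 3 mice (bar) for the member of highest FPKM in each of the 10 roles. Ccna2, Kif11, Nusap1 and Mki67 are highest in the normal libraries, whereas Plk1 and Cdc20 are highest in QJSB on average and lowest in leucogen, with model mouse 3 far above the other 2 model mice for Plk1.

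Markers of several cell types moved in the same contrast. Of the promyelocyte genes 4 of 5 were called lower in leucogen than in model (median -0.96), and their summed CPM was 6580 to 9587 in model, 8169 to 9022 in QJSB and 3414 to 4565 in leucogen. The late neutrophil genes include Ltf, Camp, Ngp and Lcn2, which granulocyte precursors switch on from the myelocyte stage. Of these late neutrophil genes 5 of 9 were called higher in leucogen (median 1.76), namely Ltf, Camp, Ngp, Mmp8 and Mmp9, while Lcn2 (1.31) was not. Their summed CPM was 2019 to 6278 in model, 3315 to 18632 in QJSB and 14304 to 18405 in leucogen. Of the stem and progenitor genes 1 of 8 (Flt3) was called lower, of macrophage genes 2 lower and 1 higher of 8, of stromal genes 1 lower of 5 tested (Col1a1), of pro-B and pre-B genes 1 lower of 7 tested (Dntt), and of T and NK cell genes 1 lower and 1 higher of 3 tested. Of erythroblast, mature B cell and megakaryocyte genes 0 were called. Model mouse 3, high for Plk1, Cdc20 and Ube2c, had the highest promyelocyte sum of the model group (9587 CPM). Other lists went more closely with the members between mice. As deviations from group means, the members' mean level correlated with the promyelocyte list at r = 0.39. With the stromal, pro-B and pre-B and late neutrophil lists r was -0.84, -0.82 and 0.69. The part of these markers in the members' results was not tested.

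QJSB against leucogen set the 2 treatments side by side. Of the 48 members 12 were called higher in QJSB, 25% against 12.9% of the 14266 genes tested. Lower were 3 members, 6.2% against 11.7% of all genes, a share below the background. The median was 0.16 (all genes 0.03) and ran from 0.08 without leucogen mouse 1 and 0.11 without QJSB mouse 3 to 0.25 without QJSB mouse 1. The higher genes were Plk1, Ube2c, Ccnb2, Cdc20 (1.14), Cdca3 (1.07), Nek2 (0.88), Aurka (0.88), Kif20a (0.74), Ccnf (0.73), Aurkb (0.69), Bub1b (0.69) and Kif2c (0.66). All 3 kinases of the centrosome and spindle were among them, with 3 of 8 genes of mitotic entry and 2 of 4 of anaphase onset. The role medians were highest in these kinases (0.88) and at anaphase onset (0.85) and lowest in spindle assembly factors (-0.29) and the checkpoint (-0.22), and the last 2 turned to 0.11 and 0.15 with the GC trend removed.

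Plk1 had 101, 116 and 103 CPM in QJSB and 37.6, 47.8 and 31.9 CPM in leucogen (log2 fold change 1.41 ± 0.16 (SE), edgeR adjusted p = 0.00285). Ube2c had 30.7, 38.9 and 30.8 CPM in QJSB and 10.5, 15.7 and 13 CPM in leucogen (log2 fold change 1.32 ± 0.19 (SE), edgeR adjusted p = 0.0035). Ccnb2, the B cyclin found at the Golgi, had 71.4, 103 and 83.7 CPM in QJSB and 24.5, 47 and 30.1 CPM in leucogen (log2 fold change 1.31 ± 0.25 (SE), edgeR adjusted p = 0.00725). For these 3 genes, every QJSB mouse lay above every leucogen mouse by a wide margin. The normal mice had 65.6, 65.6 and 75.7 CPM of Ccnb2, within the range of the QJSB mice or just below it. Ccnb1 was not called, at 62.8 ± 4.11 CPM in QJSB and 58.4 ± 4.07 CPM in leucogen (log2 fold change 0.07 ± 0.12 (SE), edgeR adjusted p = 0.706), nor was Mki67 (2310.4 ± 466 and 2271 ± 355 CPM, log2 fold change -0.01 ± 0.22 (SE), edgeR adjusted p = 0.975).

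Kif18a, Spc25 and Kif20b were called lower in QJSB than in leucogen. Kif18a had 71.1, 84.3 and 90.3 CPM in QJSB and 129, 134 and 149 CPM in leucogen (log2 fold change -0.78 ± 0.14 (SE), edgeR adjusted p = 0.00647). Spc25 had 41.5, 69.1 and 70.5 CPM in QJSB and 96.6, 95.7 and 110.2 CPM in leucogen (log2 fold change -0.77 ± 0.21 (SE), edgeR adjusted p = 0.0265), with QJSB mouse 1 the lowest. Kif20b, a kinesin of late cytokinesis, had 179.7, 179 and 203 CPM in QJSB and 283, 276 and 335 CPM in leucogen (log2 fold change -0.71 ± 0.14 (SE), edgeR adjusted p = 0.00907). The groups did not overlap for any of the 3. Spc25 lost its call without QJSB mouse 1 or any 1 of the leucogen mice, Kif2c without QJSB mouse 2 or 3 or leucogen mouse 1 or 3, Ccnf without leucogen mouse 1 or 3 and Aurka without leucogen mouse 3. Mad2l1 (log2 fold change -0.50) and Nusap1 (-0.57) were apart in the same direction without a call, as were the libraries of 22.6% of all genes tested, called or not.

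The direction of the difference went with transcript GC. The correlation of log2 fold change with GC was 0.82 across the 48 members and 0.49 across 14200 genes, and the 12 members called higher had GC of 48.4% to 56.0% whereas the 3 called lower had 38.2% to 42.6%. After removal of each library's GC trend 9 members were called, all higher in QJSB, and 8 of them were among the 12 (Plk1 1.02, Ube2c 0.93, Ccnb2 1.20, Cdc20 0.75, Cdca3 0.87, Nek2 0.70, Aurka 0.66 and Kif20a 0.67). Kif18a (-0.08), Kif20b (-0.10) and Spc25 (-0.44) were then not called. These 8 genes were thus called higher with and without the trend, and the 3 lower calls were made with the trend in place only. Of the 5 promyelocyte genes 3 were called higher in QJSB than in leucogen (median 1.28) and 0 of 9 late neutrophil genes were called, and their part in the members' values was not tested. Same-numbered libraries of these 2 groups deviated together, and a paired fit with the replicate number as a block called the same 12 and 3.

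**Figure D4:**
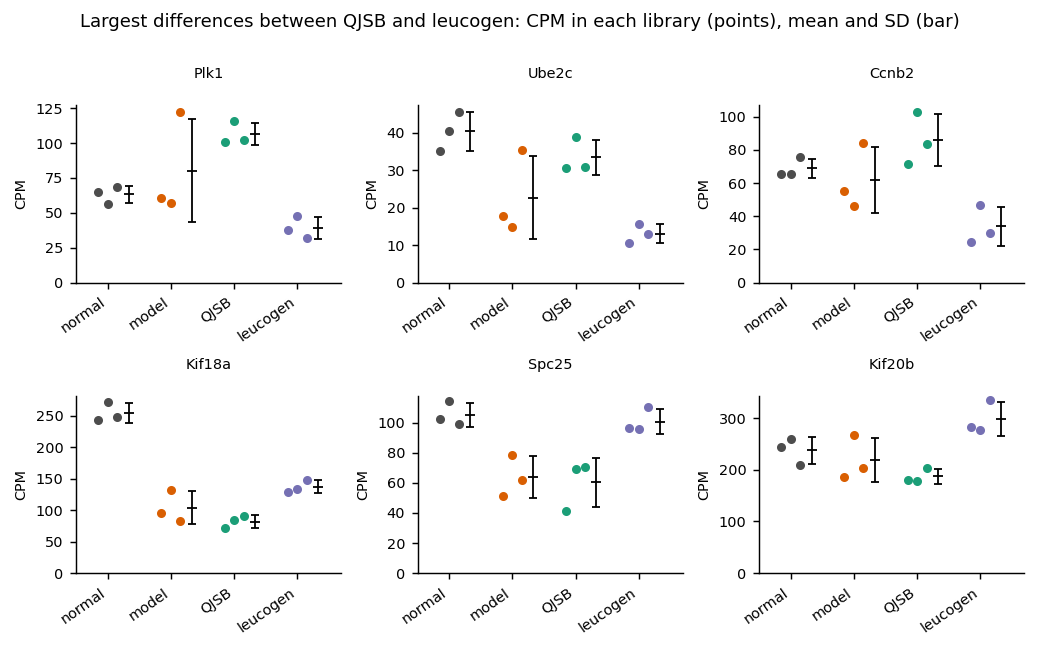
CPM in each library (points) with the mean and SD of 3 mice (bar) for the 3 largest rises (Plk1, Ube2c, Ccnb2) and the 3 falls (Kif18a, Spc25, Kif20b) called in QJSB against leucogen. In all 6 panels the QJSB and leucogen points do not overlap, and Kif18a is highest in normal.

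**Figure D5:**
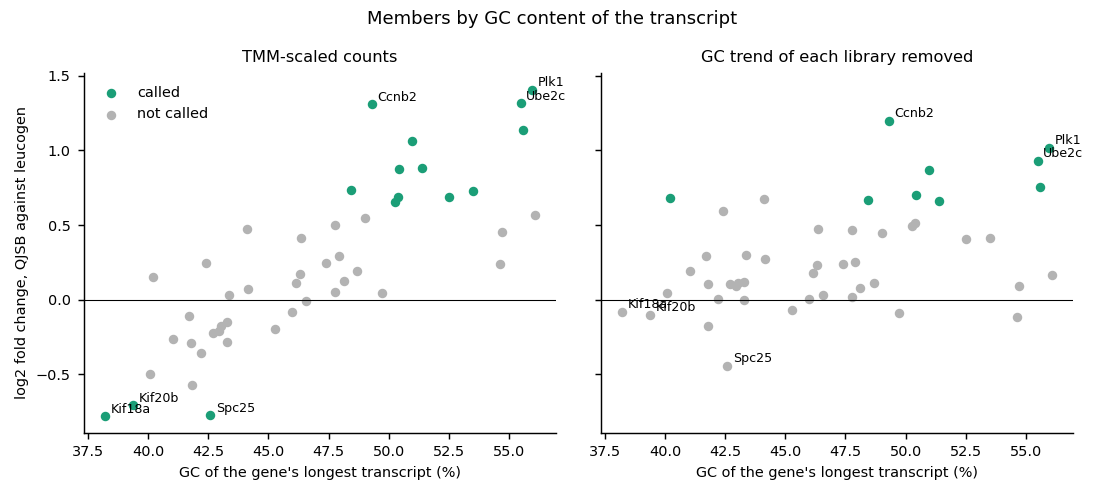
Log2 fold change of the 48 members in QJSB against leucogen (y axis) by the GC content of the longest transcript in percent (x axis), from TMM-scaled counts (left) and with the GC trend of each library removed (right); green points were called. Kif18a and Kif20b move from -0.78 and -0.71 to near zero, whereas Plk1, Ube2c and Ccnb2 stay above 0.9.

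The members moved together in part. Over the 12 libraries the median of the 1128 pairwise correlations of log2 CPM was 0.448, with a range from -0.928 to 0.985, and 74.1% of pairs were above 0. The libraries share the 4 groups, and within groups, as deviations from the group means, the median was 0.512. Kif20b, Cdca2, Kif15 and Ttk correlated least with the mean of the other members (r = -0.29, -0.13, -0.11 and -0.03 over 12 libraries). Within groups Cdca2 and Kif15 followed the others (r = 0.89 and 0.77), whereas Kif20b and Ttk did so little (r = 0.08 and 0.05). These 4 genes are 2 kinesins, a phosphatase regulator and a checkpoint kinase. None of them was called in model against normal, where 36 of the 48 members were not called. The r over 12 libraries holds the difference between these groups, so that a low r and a missing call are not separate observations. A set of 27 other spindle and division genes followed the mean of the members with r = 0.95, 8 condensin genes with r = 0.91 and 34 DNA replication genes with r = 0.76. Within groups these values were 0.97, 0.91 and 0.23. Cell type markers also moved with or against the members between mice of a group. Within groups r was -0.84 for stromal, -0.82 for pro-B and pre-B, -0.60 for stem and progenitor and -0.55 for mature B cell genes. It was -0.48 for erythroblast, -0.45 for macrophage, -0.43 for megakaryocyte and -0.18 for T and NK cell genes. Only late neutrophil (0.69) and promyelocyte genes (0.39) had a positive r within groups. Over the 12 libraries, which hold the differences between groups, r was -0.58 for promyelocyte and -0.25 for stem and progenitor genes. There it was 0.74 for macrophage, 0.72 for mature B cell, 0.72 for T and NK cell, 0.69 for erythroblast and 0.56 for pro-B and pre-B genes. Late neutrophil, stromal and megakaryocyte genes had 0.24, 0.13 and 0.10.

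Genes that act beside the members were read in the same fits, against the background of 19% of all genes called lower and 16.1% called higher in model against normal. Of the 8 condensin genes, which compact chromosomes, 1 was called lower in model than in normal, Ncapd2 (-0.73). Of 11 cohesin genes 4 were called lower, with Wapl (-0.78), Sgol1 (-0.62) and Stag2 (-0.61) the largest. Of 27 other kinetochore genes 5 were called lower and 1 higher, led by Ska2 (-1.07), Cenpk (-0.96) and Cenpl (-0.76), and of 27 other spindle and division genes 5 lower and 3 higher, led by the CDK1-activating phosphatase Cdc25b (-2.49), Aspm (-0.94) and Kif18b (-0.82). Of 15 anaphase-promoting complex genes 1 was called lower, Fzr1, the activator used in late mitosis and G1 (-1.51), and 1 higher, Anapc11 (0.66). The shares called lower among condensin, other kinetochore, other spindle and anaphase-promoting complex genes were thus at or below that background. The pathway medians in this comparison were -0.41 for condensin, -0.44 for cohesin and -0.10 for other kinetochore genes. They were -0.18 for other spindle and division genes and 0.10 for anaphase-promoting complex genes.

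Regulators that act before mitosis were read as well. Of 19 DREAM, MuvB and E2F genes 5 were called lower in model and 0 higher, and the largest were Tfdp2 (-3.49), E2f2 (-2.11) and Rb1 (-1.83). Of 5 tested CDK inhibitors, which stop the cycle, 3 were called lower, Cdkn2c (-1.28), Cdkn1b (-1.22) and Cdkn2d (-1.01). Of 8 G1 cyclins and kinases 2 were called higher and 2 lower, among them Cdk6 (1.84), Ccne2 (-1.17) and Ccne1 (-1.04). The erythroblast markers fell in the same contrast, and their part in these values was not tested.

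DNA replication genes, which act before mitosis, were compared because they share the cycling cells. In model against normal 5 of 34 were called lower and 1 higher (median -0.06), a smaller share than the 19% of all genes called lower, with Orc1 (-1.01), Pcna (-0.90) and Pola1 (-0.70) the largest. In leucogen against normal 16 of 34 were called lower (median -0.57, against 19.8% of all genes called lower), beside 22 of 48 members (median -0.51). In leucogen against model 8 of 34 were called lower (median -0.42, against 11.5% of all genes), beside 5 of 48 members (median -0.10). In QJSB against leucogen 10 of 34 were called higher and 1 lower (median 0.48, against 12.9% and 11.7% of all genes). The difference between the 2 lists was not tested.

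Over the 6 comparisons 18 of the 48 members were called in none and 3 in 4. The promoter letters can be set beside the calls. In model against normal 8 of the 11 called members with a promoter window had both CHR and NF-Y letters, as had 19 of the 29 not called, and in leucogen against normal 15 of 20 and 12 of 20. Of the 10 members called higher in QJSB than in leucogen with a window 8 had both, whereas of the 3 called lower, Kif18a, Spc25 and Kif20b, 1 had both.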

How the data were processed

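Femoral bone marrow of 12 mice was sequenced as strand-specific, rRNA-depleted total RNA on an Illumina HiSeq. Per the study's methods the authors filtered reads with Seqtk and aligned them with HISAT2 to GRCm38.p4 (mm10). The counter, its annotation and whether it used strand are not given in the sources used here, so that reads of a gene and of an overlapping antisense gene cannot be told apart. The deposited table holds raw read counts per gene and FPKM, which the authors normalized for transcript length and mapped reads. The headings Blank, Positive and Stilbene were taken to mean normal, leucogen and QJSB, from their sense and by elimination, and 0 per-sample columns were left unused.

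Counts were tested with edgeR 4.0.16 (quasi-likelihood, TMM, its filter on low counts) in R 4.3.3, each comparison on its own 6 libraries, as the study compared pairs of groups. A call needed an adjusted p under 0.05 and a change over 1.5-fold, and SE was the log2 fold change over the square root of F. FPKM was used for levels between genes and for limma-trend 3.58.1 on log2(FPKM + 0.1). Other alternatives were DESeq2 1.42.0, its size factors, total counts, other filters, all 12 libraries in one fit, a replicate block and each library left out. Removal of each library's trend with transcript GC or length was chosen after seeing the data. The scripts were tested on simulated data.

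The members and lists were chosen with earlier results of these data known. Values per library are given for the member of highest mean FPKM in each role and for up to 3 of the largest called changes in each direction of a comparison, and other members were named by their call or role. Of the other lists, up to 3 called genes with the largest change in model against normal are named. Genes singled out beyond this (Cenpa in QJSB against model, Ccnb1 beside Ccnb2, Pttg1 in QJSB) were chosen after their values were seen.

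Replicate numbers come from the labels. After subtraction of the group means, libraries with equal numbers correlated above 0.1 in every pair in QJSB against model (r = 0.453, 0.136 and 0.102) and QJSB against leucogen (0.174, 0.157 and 0.110), which were taken as paired. That rule alone made them paired, and in QJSB against model only 2 of the 6 libraries were closest to their own number. The replicates were separate mice. Over the genes as a whole these mice differed by more than counting error, which was not assessed for single members.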

Additional observations from a re-analysis of the deposited data

How the results depend on the processing

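Of the counts of called members, medians and motif shares under the alternatives, 178 stayed near the reported value. The exceptions follow, and their cause was not tested unless the setting itself shows it. In model against normal, 7 members were called in place of 12 with total counts and 7 with limma-trend on FPKM, and the median ranged from -0.43 to -0.21 as mice were left out. In QJSB against model the median ranged from -0.043 to 0.21 as mice were left out. It turned from 0.05 to -0.03 with total counts and to -0.02 with limma-trend on FPKM, so that its direction was not settled. In leucogen against model, 14 members were called in place of 6 with total counts, 13 with limma-trend on FPKM, 3 with the replicate block and 3 with the GC trend removed, with 1 to 12 as mice were left out, and the median was -0.28 with total counts and -0.27 with FPKM in place of -0.10 and ranged from -0.20 to 0.0024 as mice were left out. In QJSB against leucogen 9 members were called in place of 15 with the GC trend removed, and the median ranged from 0.08 to 0.25 as mice were left out. With windows of 150 bases before the start, which leave out the bases after it, 40% of members had a CHR (16.8% of genes), in place of 82.5%. A CHR and an NF-Y box were found in 35% (4.24% of genes), in place of 67.5%. The NF-Y share stayed at 72.5% (27.7% of genes). Of 20 named results 13 kept the call throughout, and 7 lost it in at least 1 of 16 alternatives: Cdc20 (9), Plk1 (8) and Spc25 (6) in leucogen against model, Spc25 (5), Kif18a (1) and Kif20b (1) in QJSB against leucogen and Plk1 (1) in QJSB against normal. The replicate block changed no call in the paired comparisons. In every comparison the labels share only numbers. In leucogen against model 2 of its 6 libraries were closest to their own number, the same as in QJSB against model, and 6 were in QJSB against leucogen. Depth kept no member from being tested, since all passed the filter on low counts. Whether depth limited a result was not tested.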
